A study of Mus musculus with 8 samples.

Results

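The Hist-cluster histone genes are the multicopy genes that encode the core histones H2A, H2B, H3 and H4 and the linker histone H1, and they are named for their genomic cluster and histone type. They were taken as every row of the 4 RNA-seq count tables whose symbol starts with Hist1h, Hist2h, Hist3h or Hist4h, which gave 68 of 24015 gene symbols. By type these were 6 H1, 18 H2A, 19 H2B, 12 H3 and 13 H4 genes, and by cluster 54 Hist1, 10 Hist2, 3 Hist3 and 1 Hist4 genes. One of them, Hist3h2bb-ps, is a transcribed pseudogene by its RefSeq class.

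RNA was taken from cultured MEFs, the fibroblasts of mouse embryos (E12.5, C57bl/6 background), at passages 15 to 18. In 2 libraries the cells had been given murine recombinant interferon-beta (IFN-beta), an antiviral cytokine, at 100 units/mL for 6 h, and these were set against 2 libraries of untreated cells. All 4 are labelled wild type and so do not carry the HA-tagged histone H3.3 of the series' chromatin samples, which were not analysed here. Replicates carry numbers only, with no statement on whether each was its own culture. The p-values below therefore reflect library-to-library spread, and part or all of it may be technical.

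Replication-dependent histone genes supply the histones that package newly made DNA, and their transcripts build up in S phase and are degraded when DNA synthesis stops. Most of these transcripts end in a conserved stem-loop in place of a poly(A) tail, and the stem-loop binding protein, encoded by Slbp, carries them through processing, translation and decay. Some members can also give polyadenylated transcripts. The labels name a TruSeq RNA kit, which as sold selects polyadenylated RNA, but they do not state the selection step, so the levels below describe the part of each histone mRNA that these libraries captured.

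The gene totals were 18901845 and 20714161 counts in IFN-beta libraries 1 and 2, and 18528685 and 24817342 in untreated libraries 1 and 2. The members took 0.440% and 0.594% of these in the IFN-beta libraries, against 0.755% and 0.647% in the untreated libraries. The fibroblast markers Col1a1, Col1a2, Col3a1, Pdgfra, Pdgfrb, Thy1, Vim and Fn1 all had enough counts to be tested, and they summed to 6400 and 6048 CPM (counts of a gene per 1000000 gene counts) after IFN-beta, against 4694 and 5218 CPM untreated, with 0 called. Blood and macrophage markers summed to 10.2 and 6.19 CPM after IFN-beta and 7.53 and 6.94 CPM untreated, and endothelial markers to 3.14 and 2.01 CPM, against 0.935 and 1.06 CPM. Epithelial and germ cell markers each summed to less than 1 CPM in every library, with Mael and Tex101 at 0. The endothelial gene Cdh5 rose at these low levels (1.34 and 0.957 CPM after IFN-beta, 0.104 and 0.227 CPM untreated, edgeR adjusted p = 0.0140), a call lost without IFN-beta library 1. It had 24 and 19 counts after IFN-beta and 2 and 6 untreated, and so passed the count filter only through the group where it was high. Of the other endothelial markers, Kdr was higher but not called. Tek and Pecam1 were lower, with at most 5 counts in any library, and were not tested, and Tie1 had 0 counts. Any part of these cell types in the histone results was not tested.

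The promoters below are shown because they belong to the members on which the results turn. Hist2h2bb and Hist1h2bb had the highest levels per length, Hist1h4d had the highest level of the H4 genes, and Hist3h2a was the member whose treated libraries both lay above the untreated ones. The 250 bases before each start site are from RefSeq on GRCm38.p6, all on the plus strand, at chr3:96269450-96269699, chr13:23746484-23746733, chr13:23581318-23581567 and chr11:58954435-58954684 in that order. Capitals mark matches, on either strand, to the CCAAT box, the octamer ATTTGCAT, the TATA box TATAAA and GGTCCG, the core of an element described in H4 promoters.
Hist2h2bb: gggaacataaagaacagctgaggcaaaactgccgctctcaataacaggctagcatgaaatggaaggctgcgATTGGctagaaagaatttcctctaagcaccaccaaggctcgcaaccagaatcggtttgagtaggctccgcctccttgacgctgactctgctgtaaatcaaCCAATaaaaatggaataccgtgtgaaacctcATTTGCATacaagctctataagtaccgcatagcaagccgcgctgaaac
Hist1h2bb: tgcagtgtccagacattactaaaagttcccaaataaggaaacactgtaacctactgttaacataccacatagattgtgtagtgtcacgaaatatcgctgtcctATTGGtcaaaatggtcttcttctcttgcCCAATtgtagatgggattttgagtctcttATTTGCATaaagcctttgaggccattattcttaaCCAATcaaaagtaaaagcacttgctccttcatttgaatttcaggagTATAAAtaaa
Hist1h4d: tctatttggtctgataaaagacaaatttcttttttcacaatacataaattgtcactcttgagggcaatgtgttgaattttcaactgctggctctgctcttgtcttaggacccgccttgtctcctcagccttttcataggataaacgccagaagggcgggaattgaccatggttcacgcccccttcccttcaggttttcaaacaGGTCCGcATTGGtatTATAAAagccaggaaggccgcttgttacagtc
Hist3h2a: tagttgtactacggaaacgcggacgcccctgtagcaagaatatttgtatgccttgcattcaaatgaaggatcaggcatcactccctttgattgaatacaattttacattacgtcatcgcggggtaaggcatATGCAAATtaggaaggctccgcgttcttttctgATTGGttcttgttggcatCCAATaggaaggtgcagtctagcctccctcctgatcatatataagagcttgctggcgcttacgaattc
Both H2B promoters and Hist3h2a hold an octamer, a binding site of the transcription factor Oct-1 best known from H2B genes, and more than 1 CCAAT box. Hist1h4d holds the H4 element core next to a CCAAT box and a TATA box, which do not overlap and stand just before the start site.

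Some motifs were found mainly in particular histone types, others in all. RefSeq gave 63 promoter windows for 62 of the 68 members, each running from 250 bases before to 50 bases after the start site, and the same search was run on all 32851 windows of the table. CCAAT stood in 100% of the H1, H2A, H2B and H3 windows (6, 18, 17 and 10 windows) and in 3 of the 12 H4 windows, against 37.4% of all windows. The octamer stood in 7 of 18 H2A and 7 of 17 H2B windows and in 0 of the H1, H3 and H4 windows, against 1.74% of all windows. GGTCCG stood in 11 of 12 H4 windows, 1 H2B and 1 H3 window and 0 of the H1 and H2A windows, against 8.25% of all windows. The motif AAACACA, known as the AC box of H1 genes, stood in 5 of 6 H1, 2 of 18 H2A and 2 of 17 H2B windows, against 7.18% of all windows. TATAAA stood in every type, from 40% of H3 to 66.7% of H1 and H4 windows, and in 55.6% of member windows, against 13.6% of all windows. The core of the interferon-stimulated response element, through which interferon-activated factors act, stood in 2 of 63 member windows (3.17%), those of Hist1h2be and Hist1h3h, against 3.44% of all windows. H2A and H2B genes that stand head to head have overlapping windows, so a single site between them can count for both types. A match is a description of letters and not a mapped site.

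**Figure D1:**
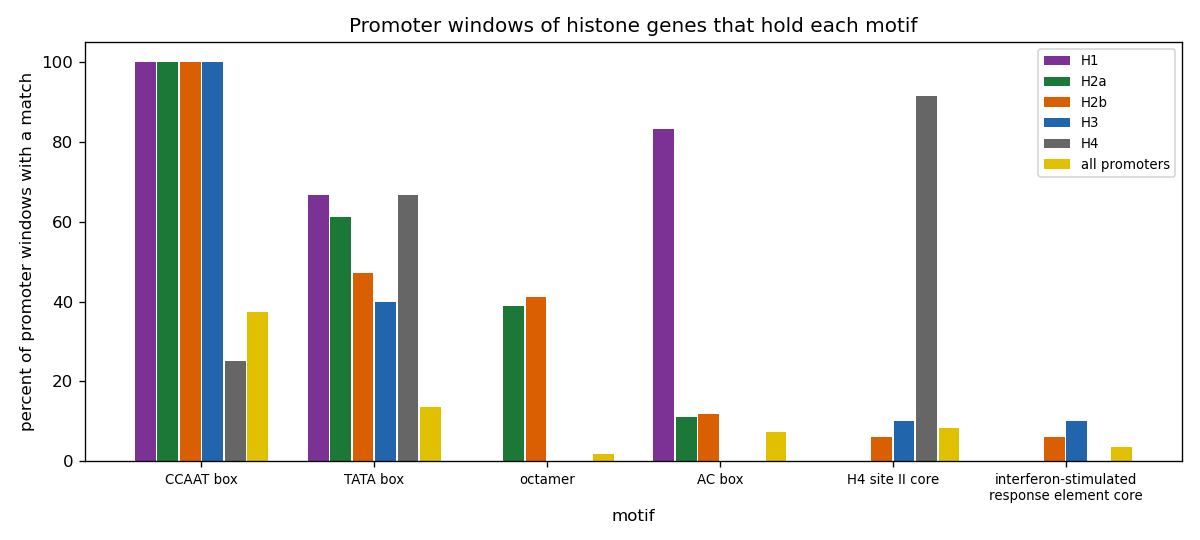
Percent of promoter windows with at least 1 match to each motif (vertical axis), for the 5 histone types and for all 32851 RefSeq windows. CCAAT is in all H1, H2A, H2B and H3 windows, GGTCCG in 91.7% of H4 windows and AAACACA in 83.3% of H1 windows, while the interferon-stimulated response element core is near the level of all windows.

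Levels were spread over a wide range. Of the 68 members, 55 had enough counts to be tested, 5 had between 1 and 3 counts in at least 1 library and no more, and 8 had 0 counts in all 4 libraries. The 55 tested members ranged from 0.765 CPM (Hist3h2bb-ps) to 805 CPM (Hist2h2bb) as the mean of the 4 libraries. The 13 others had at most 3 counts in any library, and every tested member had at least 10 counts in all 4, so no member passed the filter through 1 group. To compare genes, levels were divided by the length of the gene in RefSeq for the 51 tested members whose gene spans at most 1000 bases.

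The H2B genes held the largest share of member CPM, 33.3%, followed by H1 with 27.0%, H4 with 18.9%, H3 with 11.4% and H2A with 9.45%. Hist2h2bb, an H2B gene of the Hist2 cluster, had the highest level per length, at 1634 CPM per kb of gene, with a range from 1103 to 2191 over the 4 libraries. Hist1h2bb, an H2B gene of the Hist1 cluster, came next at 812 CPM per kb, with a range from 613 to 995 that lies under that of Hist2h2bb. Hist1h4d (578 CPM per kb, range 477 to 690) and Hist1h1c, which encodes the linker histone H1.2 (574, range 433 to 652), overlapped each other and Hist1h2bb. Hist1h1e (H1.4, 482), Hist1h4c (468), Hist1h1a (H1.1, 428) and Hist1h1d (H1.3, 391) followed, again with overlapping ranges. At the low end stood the pseudogene Hist3h2bb-ps with 1.64, Hist2h2ab with 20.7, Hist1h4j with 29.8 and Hist1h2ad with 33.0 CPM per kb.

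Some members at or near 0 belong to germ cells or come in pairs with long shared promoter runs. Hist1h2ba and Hist1h2aa, the testis H2B and H2A genes, and Hist1h1t, the testis H1 gene, had 1 or 0, 1 or 0, and 0 to 3 counts per library. Hist1h4n had 0 to 3 counts, and Hist3h2ba had 1 or 2 counts in every library. The 8 members listed at 0 were the pairs Hist1h2ao and Hist1h2ap, Hist1h2bq and Hist1h2br, Hist2h2aa1 and Hist2h2aa2, and Hist2h3c1 and Hist2h3c2. In the RefSeq promoter windows these pairs shared unbroken runs of 200, 300, 219 and 231 bases, whereas a tested member's longest shared run with any other member had a median of 15 bases. Of each window 250 bases lie before the start site and 50 after it, and transcript sequences were not compared. The exception of 100 bases or more among 49 tested members was Hist1h4m, which shared 285 bases with Hist1h4n and was counted all the same. Reads without a unique alignment made up 34.9% and 37.2% of records in the IFN-beta tables, against 33.0% and 29.8% in the untreated tables. Such reads are left out of the gene counts. So are reads that fell on more than 1 gene, at 0.471% and 0.466% of records after IFN-beta, against 0.535% and 0.526% untreated. A 0 here therefore limits only reads placed uniquely and assigned to 1 gene. That limit is 0.0362 CPM, for 3 counts over the 4 libraries, and it covers counting error only. Other members also share stretches of sequence, so every level is that of the uniquely placed reads assigned to 1 gene.

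**Figure D2:**
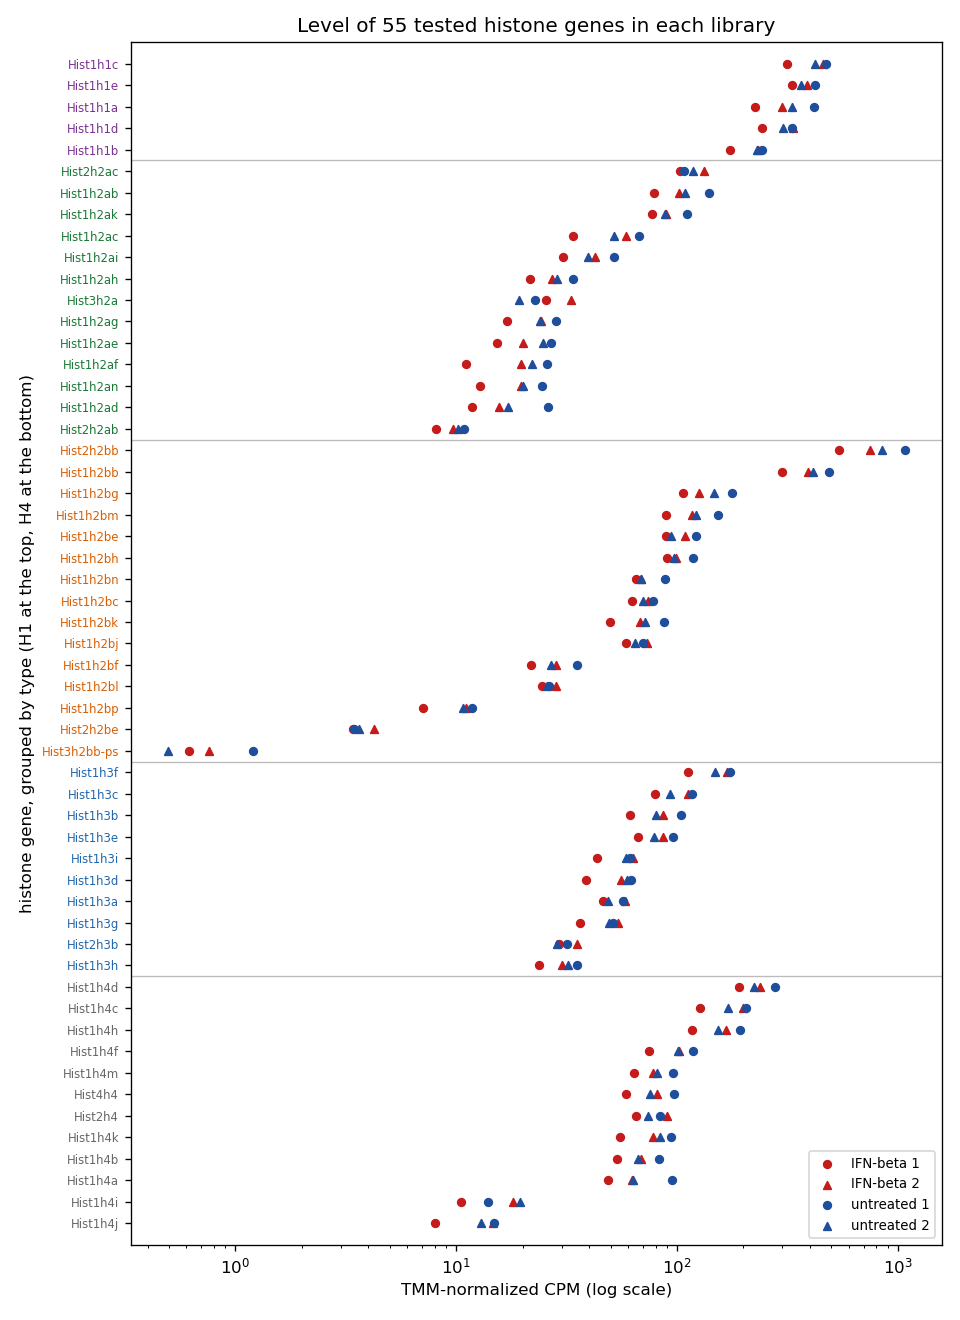
TMM-normalized CPM (log scale) of the 55 tested members in IFN-beta libraries 1 and 2 (red) and untreated libraries 1 and 2 (blue), grouped by histone type. IFN-beta library 1 lies left of IFN-beta library 2 in all 55 members, and untreated library 1 lies right of untreated library 2 in 52.

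The treatment comparison asked whether histone transcripts differed after 6 h of IFN-beta. Values leaned lower, but no member passed the test: 0 of 55 tested members were called lower and 0 higher (edgeR's quasi-likelihood F test, with p-values adjusted over all tested genes by Benjamini-Hochberg and a threshold of 0.05). Bulk RNA cannot tell fewer S phase cells from less histone RNA per cell. Over all 12128 tested genes 0.495% were called lower, 4.73% higher and 5.23% in either direction. At an unadjusted p under 0.05 there were 12 members lower and 1 higher, and 8.56% of all tested genes lower. DESeq2 called 1 member lower, Hist2h2bb, and limma-voom 0, against 0.849% and 0.453% of all tested genes called lower by each. The median log2 fold change of the members was -0.28, against -0.02 for all tested genes, and 50 of 55 members (90.9%) were below 0, against 52.6% of all tested genes. Both treated libraries lay under both untreated ones in 19 of 55 members (34.5%), against 26.8% of all tested genes, a share near the background.

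The size of the lean depended largely on 2 of the 4 libraries. Without IFN-beta library 1 the members' median was -0.09 with 36 of 55 below 0. All tested genes then had a median of -0.02 with 6594 of 12528 below 0. Without untreated library 1 all tested genes had a median of -0.0024 with 6282 of 12463 below 0. The members' median in that setting was -0.10 with 43 of 55 below 0. Without IFN-beta library 2 it was -0.51 and without untreated library 2 it was -0.40. The number of members called lower was 0 without IFN-beta library 1, where 0.192% of all tested genes were called lower. It was 3 of 55 without IFN-beta library 2, against 0.445% of all tested genes, and 32 of 55 without untreated library 2, where 14.0% of all tested genes were called lower and 15.3% higher. Without untreated library 1 a single member, Hist3h2a, was called higher, against 6.91% of all tested genes, and 0 lower, against 1.82%. With a library left out, the lone library of a group is assumed to vary like the other group.

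**Figure D3:**
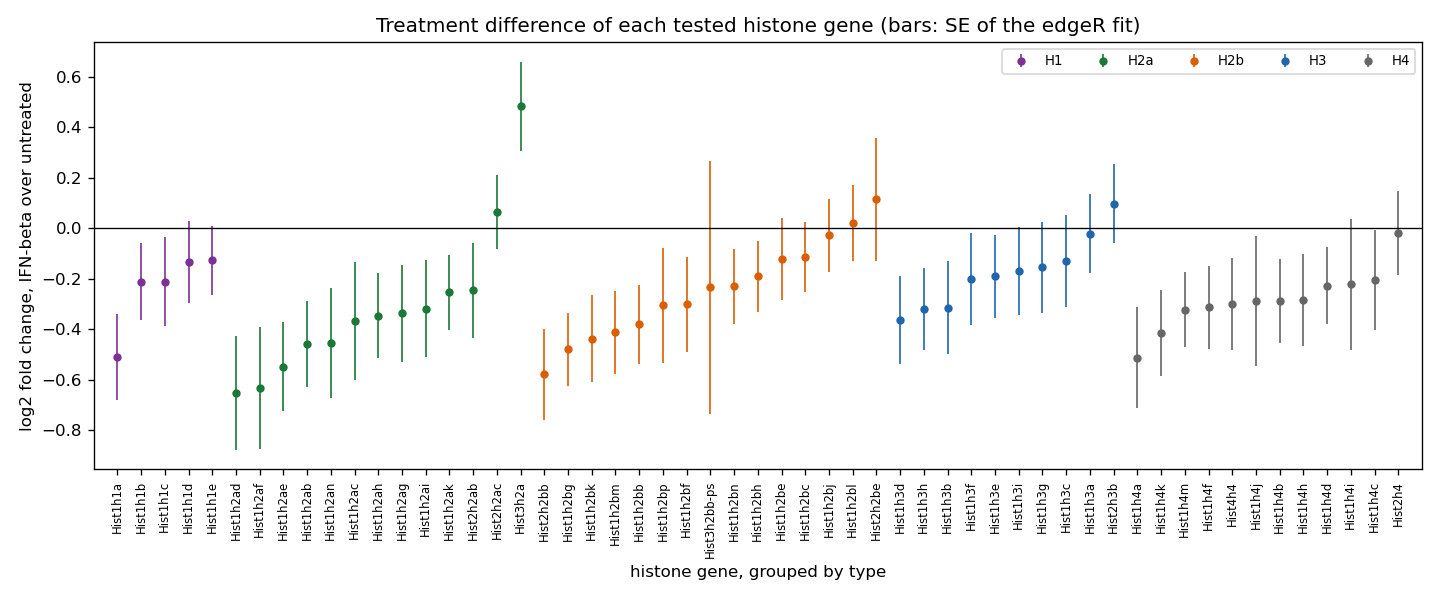
log2 fold change of IFN-beta over untreated (vertical axis) of each tested member, grouped by type, with bars for the standard error of the edgeR fit. 50 of 55 points lie below 0, Hist1h2ad is lowest at -0.65 and Hist3h2a highest at 0.48, and 0 members passed the test.

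Among the H2B genes, Hist2h2bb had 544 and 748 CPM after IFN-beta, against 1080 and 850 CPM in untreated cells. The groups did not overlap, with IFN-beta library 1 lowest and untreated library 1 highest. The log2 fold change was -0.58 ± 0.18 (SE, edgeR adjusted p = 0.119), and it depended on the libraries: -0.74 (adjusted p = 3.8e-07) without untreated library 2 and -0.83 (0.0325) without IFN-beta library 2, but -0.36 (0.969) without IFN-beta library 1 and -0.37 (0.0892) without untreated library 1. Its share of all H2B counts was 35.9% and 38.4% after IFN-beta, against 42.5% and 41.1% untreated, a comparison that does not depend on library scaling. Hist1h2bb had 300.4 and 391 CPM, against 488 and 413 CPM (-0.38 ± 0.16, edgeR adjusted p = 0.238), and its share of H2B counts stayed between 19.2% and 20.1% in all 4 libraries. Without untreated library 2 Hist1h2bb was called lower (-0.50, adjusted p = 0.00088), and without IFN-beta library 1 its value was -0.20 (0.999). Hist1h2bg had 107 and 126 CPM, against 178 and 147 CPM (-0.48 ± 0.14), with an edgeR adjusted p of 0.104, the lowest of any member. Its value was -0.61 (2.1e-05) without untreated library 2 and -0.31 (0.123) without untreated library 1. Hist2h2be, which has a longer gene than most, stood at 3.42 and 4.23 CPM, against 3.43 and 3.64 CPM (0.11 ± 0.24), and its groups overlapped.

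The H2A genes held the members at both ends. Hist1h2ad had 11.8 and 15.6 CPM after IFN-beta, against 26.0 and 17.2 CPM untreated (-0.65 ± 0.23, edgeR adjusted p = 0.159), with -0.92 (4.1e-07) without untreated library 2 and -0.31 (0.360) without untreated library 1. Hist1h2af had 11.1 and 19.6 CPM, against 25.8 and 21.98 CPM (-0.63 ± 0.24, edgeR adjusted p = 0.204), and was called without IFN-beta library 2 (-1.10, adjusted p = 0.0061) and without untreated library 2 (adjusted p = 6.1e-05), but had -0.28 (0.999) without IFN-beta library 1. Hist1h2ae had 15.2 and 19.99 CPM, against 26.9 and 24.7 CPM (-0.55 ± 0.18, adjusted p = 0.126), with -0.61 (0.0010) without untreated library 2 and -0.36 (0.999) without IFN-beta library 1. In these 3 genes the groups did not overlap, and in each the treated library 1 was the lowest of the 4. The more abundant Hist1h2ab (78.4 and 102 CPM, against 139.5 and 108 CPM) and Hist1h2ak (77.3 and 88.9 CPM, against 110.5 and 88.0 CPM) had log2 values of -0.46 and -0.25, and both were called lower without untreated library 2 (adjusted p = 1.3e-05 and 0.0080), while without untreated library 1 their values were -0.24 and -0.058.

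Hist2h2ac and Hist3h2a had values above 0. Hist2h2ac, an H2A gene of the Hist2 cluster, had 104 and 132 CPM, against 108 and 118 CPM (0.06 ± 0.15), with overlapping groups and a value that turned negative under total library size and upper quartile scaling. Its share of H2A counts was 23.2% and 22.3% after IFN-beta, against 15.9% and 20.7% untreated. Hist3h2a, the H2A gene of the Hist3 cluster, had 25.5 and 33.2 CPM, against 22.9 and 19.3 CPM (0.48 ± 0.18, edgeR adjusted p = 0.184), and it was called higher only without untreated library 1 (0.63, adjusted p = 0.0025) among the settings run, with 0.28 (0.776) without IFN-beta library 2. It was the 1 member of 55 (1.82%) whose treated libraries both lay above the untreated ones, against 23.9% of all tested genes.

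Among the linker histone genes, Hist1h1a had 226 and 300.3 CPM after IFN-beta, against 419 and 331 CPM (-0.51 ± 0.17, edgeR adjusted p = 0.141), with -0.67 (2.0e-06) without untreated library 2 and -0.31 (0.162) without untreated library 1. Its share of H1 counts was 17.5% in both treated libraries, against 22.2% and 20.1% in the untreated ones. Hist1h1c had 314 and 458 CPM, against 473 and 420 CPM (-0.21 ± 0.18), and Hist1h1e had 332 and 388 CPM, against 422 and 365 CPM (-0.13 ± 0.14). In both genes the groups overlapped, and the H1 values ran from -0.51 to -0.13.

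The H3 genes had a median log2 fold change of -0.18 and 0 of 10 with an unadjusted p under 0.05. Hist1h3f had 112 and 168 CPM, against 173 and 149 CPM (-0.20 ± 0.18), Hist1h3c 79.7 and 113 CPM, against 117 and 93.2 CPM (-0.13 ± 0.18), and Hist1h3b 61.5 and 86.3 CPM, against 104 and 80.0 CPM (-0.31 ± 0.19). These 3 overlapped between groups, and Hist1h3b was called lower without untreated library 2 (-0.49, adjusted p = 0.0012) but had -0.090 without untreated library 1. Hist2h3b, the H3 gene of the Hist2 cluster with unique counts, was at 29.1 and 35.3 CPM, against 31.7 and 28.5 CPM (0.10 ± 0.16), a value that turned negative under total library size scaling.

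The H4 genes had a median of -0.29 and all 12 were below 0. Hist1h4a had 48.5 and 62.5 CPM, against 95.4 and 63.4 CPM (-0.51 ± 0.20, edgeR adjusted p = 0.211), with -0.78 (5.8e-08) without untreated library 2 and -0.17 (0.596) without untreated library 1. Its groups were less than 1 CPM from overlapping. Hist1h4d had 192 and 237 CPM, against 277 and 224 CPM (-0.23 ± 0.15), Hist1h4c 127 and 199 CPM, against 206 and 170 CPM (-0.20 ± 0.20), and Hist1h4h 117 and 167 CPM, against 194 and 153 CPM (-0.28 ± 0.18). Hist4h4, the Hist4 cluster's member, had 58.6 and 81.2 CPM, against 97.4 and 75.2 CPM (-0.30 ± 0.18, edgeR adjusted p = 0.422). These last 4 overlapped between groups, and each was called lower without untreated library 2 (adjusted p = 0.0153, 0.0325, 0.0030 and 0.0018, in the same order). Without untreated library 1 these 4 values lay between -0.080 and -0.037.

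By cluster, 45 of 46 tested Hist1 genes were below 0 with a median of -0.30, whereas the 6 tested Hist2 genes had a median of 0.02 with 3 below 0, Hist2h2bb the lowest. Summed over members, Hist1 genes reached 3823 and 5067 CPM after IFN-beta, against 5833 and 4908 CPM untreated, and Hist2 genes 753 and 1020 CPM, against 1317 and 1084 CPM. Most of the Hist2 sum was Hist2h2bb alone, with 544 and 748 CPM, against 1080 and 850 CPM. Hist3 genes reached 26.2 and 34.0 CPM, against 24.2 and 19.8 CPM. The difference between clusters was not tested.

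Some H2A and H2B genes lie head to head and share the stretch between their start sites. By the RefSeq table, 10 such pairs of members had start sites at most 600 bases apart, and both genes were tested in 7. The distance in level within a pair varied. Hist1h2ak and Hist1h2bn were close per length, at 170.1 and 152.0 CPM per kb with overlapping ranges over the libraries. In the pair furthest apart in CPM, Hist1h2bg averaged 117 ± 13.5 CPM after IFN-beta and 163 ± 21.7 CPM untreated (SD, n = 2), while its partner Hist1h2ae averaged 17.6 ± 3.36 and 25.8 ± 1.56 CPM in that order. Their log2 fold changes were -0.48 and -0.55. In the pair Hist1h2bf and Hist1h2ad they were -0.30 and -0.65, and in the pair Hist1h2bl and Hist1h2ai 0.02 and -0.32.

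The difference between replicate libraries was as regular as that between groups. Summed over the 68 members, the level was 4660 CPM in IFN-beta library 1 and 6202 CPM in IFN-beta library 2, against 7272 CPM in untreated library 1 and 6087 CPM in untreated library 2. As group means this was 5431 ± 1090 CPM after IFN-beta and 6680 ± 838 CPM untreated (SD, n = 2 each), so the means differ by about as much as the replicates do. With this scaling IFN-beta library 2 lay above untreated library 2 (log2 ratio of the tested members' sums 0.027), and with total library size it lay below (-0.12). As shares of all gene counts, given above, both treated libraries were under both untreated ones, so whether the groups overlap depends on the scaling. The order of libraries with TMM scaling was also seen in the H1, H2A, H3 and H4 sums, while in the H2B sum untreated library 2 (2066 CPM) lay above IFN-beta library 2 (1947 CPM).

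**Figure D4:**
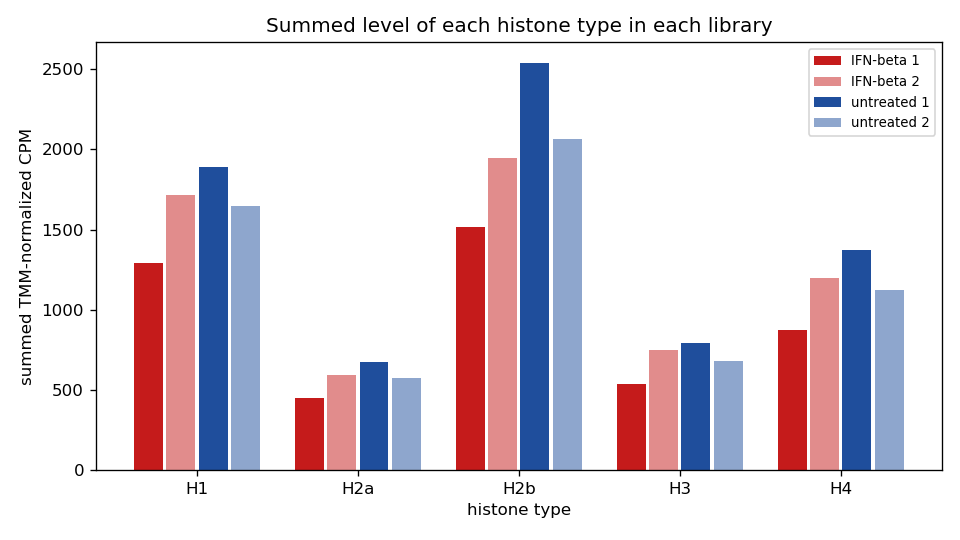
Summed TMM-normalized CPM of each histone type (vertical axis, from 0) in IFN-beta libraries 1 and 2 and untreated libraries 1 and 2. In each type IFN-beta library 1 is lowest and untreated library 1 highest, and IFN-beta library 2 and untreated library 2 lie between them.

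Member by member, IFN-beta library 1 was below IFN-beta library 2 in 55 of 55, with a median log2 ratio of -0.39 and a range from -0.87 (Hist1h4j, 8.01 and 14.7 CPM) to -0.07 (Hist1h2bn). Over all tested genes 50.4% were below and the median was -0.00. Untreated library 1 was above untreated library 2 in 52 of 55, with a median of 0.24. The exceptions were Hist1h4i (-0.48), Hist2h2ac (-0.13) and Hist2h2be (-0.09), and the largest ratio was that of the low pseudogene Hist3h2bb-ps (1.28, from 23 and 13 counts). Over all tested genes the median was -0.01. With total library size scaling the counts were 55 and 51 of 55, and with size factors 55 and 52.

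Setting single libraries against each other shows how far the treatment value depends on the pair chosen. IFN-beta library 1 was below untreated library 1 in 54 of 55 members (median -0.64) and below untreated library 2 in 52 (-0.39). IFN-beta library 2 was below untreated library 1 in 43 (-0.22) but below untreated library 2 in only 20 of 55 (0.08). With total library size scaling that last pair gave 40 of 55 and a median of -0.07, against -0.17 for all tested genes. These ratios of 1 library to 1 have no replicate check.

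**Figure D5:**
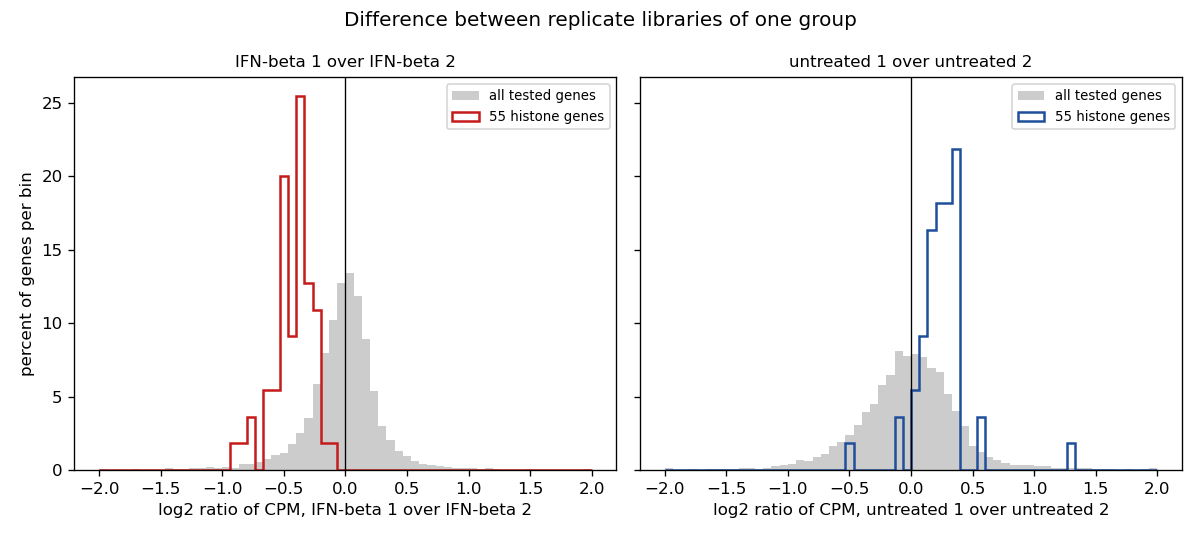
Distribution of the log2 ratio between replicate libraries (horizontal axis), for IFN-beta 1 over 2 and untreated 1 over 2, as percent of genes per bin, for all tested genes (grey) and the 55 members (outline), with ratios beyond 2 drawn at the edge. All 55 members lie left of 0 in the IFN-beta pair and 52 lie right of 0 in the untreated pair, while all tested genes centre near 0.

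Other measures moved with these library differences. The ribosomal RNA gene Rn45s took 10.2% and 9.06% of gene counts in the IFN-beta libraries, against 4.20% and 5.65% in the untreated ones, and so ran opposite to the members within both groups. Of the other tested genes that span at most 1000 bases, 117 in number, 86.3% were lower in IFN-beta library 1 than in library 2 and 86.3% were higher in untreated library 1 than in library 2, with a median treatment value of -0.18. Among the 29 of them that code for protein these shares were 82.8% and 75.9%, and among 10561 genes over 5000 bases they were 47.7% and 47.3%. The part of gene length or of RNA composition in the histone values was not tested.

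Cell cycle genes gave mixed library orders, and the difference from the members was not tested. Of 30 tested S phase genes, 18 were lower in IFN-beta library 1 than in library 2 (median -0.07) and 17 were higher in untreated library 1 than in library 2 (0.07). Of 16 tested G2 and M phase genes, 7 were lower in IFN-beta library 1 than in library 2 (median 0.01) and 11 were higher in untreated library 1 than in library 2 (0.18). The S phase sums were 4204 and 4225 CPM after IFN-beta, against 4593 and 4152 CPM untreated. Of these 30 genes 1 rose after IFN-beta and 0 fell, the replication helicase gene Mcm6 (348 and 332 CPM, against 256 and 212 CPM, 0.54 ± 0.13, edgeR adjusted p = 0.0498), a call just under the threshold. It was lost without IFN-beta library 1 (adjusted p = 0.388), without IFN-beta library 2 (0.166), under total library size (0.0928), upper quartile (0.0906) and DESeq2 size factor (0.0560) scaling, with the stricter filter (0.0522), with the replicate block (0.0632) and without Rn45s, Lars2 and Mir6236 (0.0543). Of the 16 G2 and M phase genes, the kinetochore motor gene Cenpe rose (476 and 434 CPM, against 291 and 264 CPM, 0.71 ± 0.13, edgeR adjusted p = 0.0078, but 0.105 without IFN-beta library 1) and 0 fell. Without untreated library 2, where 15.3% of all tested genes were called higher and 14.0% lower, the S phase list had 2 of 30 higher and 7 lower, and the G2 and M phase list 3 of 16 higher and 5 lower. With total library size scaling 2 of 30 S phase genes were called lower and 0 higher. Of 16 G2 and M phase genes that scaling called 1 lower and 1 higher. Over all tested genes it called 2.89% lower and 3.94% higher. Of 10 cell cycle inhibitor genes 0 were called in the reported edgeR fit or by DESeq2 or limma-voom, with 1 at an unadjusted p under 0.05. The lowest p-values were those of Cdkn1a (0.85), Cdkn1c (-0.40) and Cdkn2c (-0.36). With the replicate block 1 of the 10 was called higher, against 5.71% of all tested genes, and without a count filter 1, against 5.16%.

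The factors that make histone transcripts showed no call. Of 23 tested genes for histone gene transcription and 3-prime end processing, 0 were called by edgeR, DESeq2 or limma-voom, and 1 had an unadjusted p under 0.05. Slbp was at 128 and 114 CPM, against 145 and 118 CPM (-0.12 ± 0.14), and Npat, the coactivator of histone genes in S phase, at 94.3 and 88.0 CPM, against 93.9 and 80.5 CPM (0.07 ± 0.13). The U7 particle gene Lsm11 (-0.42, edgeR adjusted p = 0.238), Snrpg (-0.35) and Snrpe (-0.33) had the lowest p-values of the list. Without untreated library 2 the list had 2 calls higher and 3 lower among 23 genes, shares under or near those of all tested genes in that setting (15.3% and 14.0%), and without untreated library 1 it had 1 higher (6.91% of all tested genes).

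Genes linked to decay of histone and other mRNAs rose in part. Of 12 tested genes for histone mRNA translation and decay, 5 rose and 0 fell, against 4.73% and 0.495% of all tested genes. The list median was 0.28, and the list was chosen with earlier results of these data known. Pnpt1, an RNA exonuclease of mitochondria, had 444 and 471 CPM after IFN-beta, against 141 and 106 CPM (1.89 ± 0.16, edgeR adjusted p = 2.6e-05). The decapping enzyme gene Dcp2 had 321 and 319 CPM, against 95.7 and 115 CPM (1.60 ± 0.14, adjusted p = 3.1e-05), and the 5-prime exonuclease gene Xrn1 had 75.5 and 73.7 CPM, against 26.4 and 28.7 CPM (1.43 ± 0.13, adjusted p = 6.4e-05). Zcchc6 and Zcchc11, whose human counterparts add uridines to RNA ends, rose by 0.61 and 0.60 (edgeR adjusted p = 0.0256 and 0.0312), calls lost under total library size scaling (0.0711 and 0.0796), for Zcchc11 under upper quartile scaling (0.0582), and for both without IFN-beta library 1 (0.371 and 0.231) and without IFN-beta library 2 (0.0767 and 0.260). None of these 5 is specific to histone transcripts, and whether any of them acted on histone transcripts was not tested. Eri1, the exonuclease that binds the histone stem-loop (-0.12 ± 0.12), and the decay helicase gene Upf1 (0.32 ± 0.23) did not pass. Without untreated library 2 the Upf1 value was 0.79.

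Histone genes outside the clusters gave 0 calls by edgeR and by limma-voom, and 1 by DESeq2, among 12 tested replication-independent and variant histone genes, with 4 at an unadjusted p under 0.05. Their median was -0.35, with 9 of 12 below 0. H2afz, the gene of the variant H2A.Z, had 1138 and 1403 CPM after IFN-beta, against 2003 and 1645 CPM (-0.52 ± 0.16, edgeR adjusted p = 0.117), with IFN-beta library 1 lowest and untreated library 1 highest. It was called lower by DESeq2 (adjusted p = 0.0404), under total library size scaling (0.0410) and without untreated library 2 (2.7e-05), and had -0.38 (0.988) without IFN-beta library 1. H2afy2 (-0.57, edgeR adjusted p = 0.0966) and H3f3a (-0.44, adjusted p = 0.117) had the other low p-values. Under total library size scaling 3 of these 12 genes were called lower and 0 higher, against 2.89% of all tested genes lower. Without a count filter 3 of 13 were called lower and 0 higher, against 2.28% lower. Of 16 tested replication-coupled chaperone genes 0 were called in the reported edgeR fit or by DESeq2 or limma-voom. An unadjusted p under 0.05 was reached by 2, and Hat1 (-0.41), Nasp (-0.37) and Ipo4 (0.33) led by p-value. With total library size scaling 1 of the 16 was called lower, against 2.89% of all tested genes. Without untreated library 2, where 14.0% of all tested genes were called lower and 15.3% higher, the variant histones had 6 of 12 lower and 0 higher, the chaperones 3 of 16 lower and 2 higher, and the cell cycle inhibitors 4 of 10 lower and 1 higher.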

How the data were processed

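Total RNA was isolated with Trizol and made into libraries with a TruSeq RNA kit, per the labels' protocols. The authors deposited a separate table of raw counts for each library, without normalization or pooling. The submitters' processing notes name TopHat2 2.0.13, HTSeq 0.7.2 and build mm9. The annotation and strand setting are not given in the sources used here, so reads of overlapping genes cannot be separated. Each table has 24015 symbols and 5 summary lines, and these lines entered neither library sizes nor tests. Among records, 42.7% and 38.7% were assigned to genes in the IFN-beta tables, against 39.3% and 41.4% in the untreated ones.

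The treatment test used edgeR 4.0.16 under R 4.3.3 (quasi-likelihood F test, TMM, group as the only term, minimum count 10, minimum total count 15) and Benjamini-Hochberg adjustment over 12128 genes at 0.05. CPM use TMM-adjusted library sizes. The SE is the size of the log2 fold change divided by the square root of F. With 2 libraries against 2 an exact permutation test cannot go below p = 0.333. The procedure was tested on simulated data. Alternatives were other scalings and filters, DESeq2 1.42.0, limma-voom (limma 3.58.1), a replicate block and each library left out. Members and lists were chosen with earlier results of these data known. Members named are the 3 highest per type, the 5 lowest and 3 highest fold changes, the 3 lowest p-values, any called, those called in an alternative with all 4 libraries other than the crossed pairing, the 3 with the largest replicate ratio, and all of Hist3 and Hist4; of each list, the called genes or the 3 with the lowest p-value. Other genes named were chosen after their values were seen.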

Additional observations from a re-analysis of the deposited data

How the results depend on the processing

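In the reported fit 0 of 55 members were called. With total library size 2 of 55 were called lower (Hist1h2bg and Hist2h2bb), against 2.89% of all tested genes. Without a count filter 8 of 60 were called lower, against 2.28%, and with the DESeq2 Wald test 1 of 55, against 0.849%. The number was 0 with DESeq2 size factors, upper quartile scaling, a stricter filter, limma-voom, another prior count and without Rn45s, Lars2 and Mir6236. In those settings 0.445% to 1.06% of all tested genes were called lower. With the replicate block 1 of 55 was called lower (Hist1h2af), against 1.28% of all tested genes. The labels do not say whether same-numbered libraries were paired. The correlation of same-numbered deviations was -0.12 over 12128 genes, and with 1 replicate difference per group it cannot decide this. With the crossed pairing, added after the data were seen, 12 of 55 members were called, all lower, against 3.18% of all tested genes. Hist1h2bk, Hist1h2bm and Hist1h4k were among these 12. That pairing called 1193 genes in either direction, against 634 in the reported fit. Leaving out each library gave 0 to 32 members and 494 to 3613 genes. Without a count filter 1244 genes were called. Lower genes numbered 60, but 350 with total library size and 381 without a filter. The members' median stayed below 0 in every setting, from -0.51 to -0.09. Total library size moved the median of all tested genes to -0.16. That scaling left 54 of 55 members below 0 and upper quartile scaling 52, against 50 in the reported fit. Among members picked by the naming rule, total library size turned Hist2h2ac to -0.080, Hist2h2be to -0.029 and Hist2h3b to -0.044. Upper quartile scaling turned Hist2h2ac to -0.0075. With a library left out, values that changed sign ran from -0.51 to 0.039 for Hist1h1c, -0.24 to 0.0057 for Hist1h1e, -0.40 to 0.10 for Hist1h3c, -0.52 to 0.061 for Hist1h3f, -0.56 to 0.086 for Hist1h4c, -0.79 to 0.080 for Hist1h4j, -0.12 to 0.23 for Hist2h2ac, -0.048 to 0.26 for Hist2h2be, -0.048 to 0.23 for Hist2h3b and -0.79 to 0.50 for Hist3h2bb-ps. The values of Hist1h1d, Hist1h2bc, Hist1h2be, Hist1h2bj, Hist1h2bl, Hist1h3a, Hist1h3g, Hist1h3i, Hist1h4i and Hist2h4, outside the naming rule, also crossed 0 over the settings run. The cause was not tested. Low members such as Hist3h2bb-ps and Hist2h2be are limited by depth.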
